A study of Mus musculus with 6 samples.

Results

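Csf3, Lcn2, Saa3, Ptges and Ptgs2 are inflammatory genes that interleukin-1 is known to switch on. They were taken by gene symbol. The choice was selected on measured values, since in an earlier look at this same contrast Csf3, Lcn2, Saa3 and Ptges stood out as interleukin-1 targets with a positive difference between large and small melanomas, with none of the 4 called. Of the 5 genes, 4 were matched to a probe, each to a single probe, out of 11092 genes with a named probe. No named probe was matched to Ptgs2, which was therefore not analysed here. The 4 measured genes passed the filter for the gene test, which held 10523 genes.

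The study measured gene expression in B16 melanomas, tumors grown from a transplantable mouse melanoma cell line in C57BL/6 mice, the strain the line came from. Mice received 400000 cells, and tumors were excised on day 8 and cleared of neighbouring normal tissue. Large tumors had an area of 70 to 80 mm2 and small tumors 10 to 20 mm2, with 3 samples each and 1 Illumina bead array per sample. The labels name no genotype, treatment, sex or age, and give neither the clone of the line nor the number of mice behind a sample. An SD given here is therefore the spread between these samples. The SE of a difference comes from limma, which draws the variance of each gene toward a value shared by all genes. For a widely spread gene such as Ptges, it is smaller than its own SDs would give.

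Interleukin-1 acts through a receptor whose signal reaches the transcription factor NF-kB. Csf3 encodes granulocyte colony-stimulating factor, which drives the making and release of neutrophils. Lcn2 encodes lipocalin 2, a secreted protein that binds iron-carrying siderophores of bacteria, and Saa3 encodes an acute-phase serum amyloid that mice make largely outside the liver. Ptgs2 encodes the inducible cyclooxygenase, and Ptges the enzyme that turns its product into prostaglandin E2, a mediator of inflammation that also dampens immune responses.

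Signals are the mean bead brightness of a probe on a linear scale, and a probe counts as detected on an array at a detection p-value under 0.05. The lowest signal of a detected probe lay between 111 and 139 on the 6 arrays. The array of small replicate 1 was dim throughout, with 17310 probes detected, while the other 5 arrays had 18331 to 19771. Normalized levels are log2 values after background correction and quantile normalization, and a difference is the mean of large minus the mean of small tumors. Across the 10523 genes the median difference was -0.00096, and 260 were called at an adjusted p under 0.05 (limma, Benjamini-Hochberg), 83 higher and 177 lower in large tumors (0.789% and 1.68% of the genes tested). Before adjustment, 2371 genes (22.5%) had a p under 0.05. The split was 179 higher and 225 lower without background correction, and 96 higher and 66 lower when arrays were scaled to a common median, which moved the median of all genes to 0.34. All 9 markers of melanoma cells, among them Pmel, Dct and Mlana, were among the genes tested. Their summed normalized level ran from 113675 to 120270 in large and from 103932 to 110241 in small tumors. The differences of the 9 were all positive, from 0.03 to 0.88, with 0 called. Pmel was at 0.09 with the probe used and 0.82 with another, and Dct at 0.05 and 0.06. The 5 genes were picked with this contrast known, so their differences are described without a test.

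Saa3 was the brightest of these signals, and its deposited signals, which are not scaled between arrays, separated the groups. They were 1422, 1788 and 1401 in large tumors, replicates 1 to 3, against 731, 540.2 and 849 in small tumors. The means were 1537 ± 218 and 707 ± 156 (SD, n = 3 each), a ratio of 2.18. Signals were lower in general on the small-tumor arrays, whose median over all probes was 104 to 115, while that of the large-tumor arrays was 117 to 128. The gap was wider among bright signals, nearer to those of Saa3. A high percentile of the signals was 1926, 1997 and 1761 on the large-tumor arrays, replicates 1 to 3. That percentile was 949, 1561 and 1477 on the small-tumor arrays. The ratio of 2.18 is not corrected for this difference between arrays. After normalization the levels were 10.10, 10.38 and 10.22 in large tumors, against 10.17, 8.85 and 9.64 in small tumors. The groups then overlapped, with small replicate 1 lying between the large tumors. The normalized difference was 0.68 ± 0.31 (SE, n = 3 per group), or 1.60-fold. Leaving out small replicate 2, the sample with the lowest level, gave 0.33, and leaving out small replicate 1 gave 0.99. Large tumors lay close together, with an SD of 0.14, and small tumors were spread with an SD of 0.66.

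Lcn2 had low signals, 162, 167 and 164 in large tumors and 106, 148 and 125 in small tumors. The probe was detected in all 3 large tumors and in 2 of 3 small tumors, small replicate 1 being the exception. Normalized levels were 5.93, 5.83 and 5.92 in large tumors, against 4.79, 5.84 and 5.08 in small tumors. Small replicate 2 was at the level of the large tumors, and the other small tumors were below it. The difference was 0.66 ± 0.26 (SE, n = 3 per group), and 0.43 without small replicate 1. As for Saa3, the SD was far smaller in large tumors (0.05) than in small tumors (0.54).

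**Figure D1:**
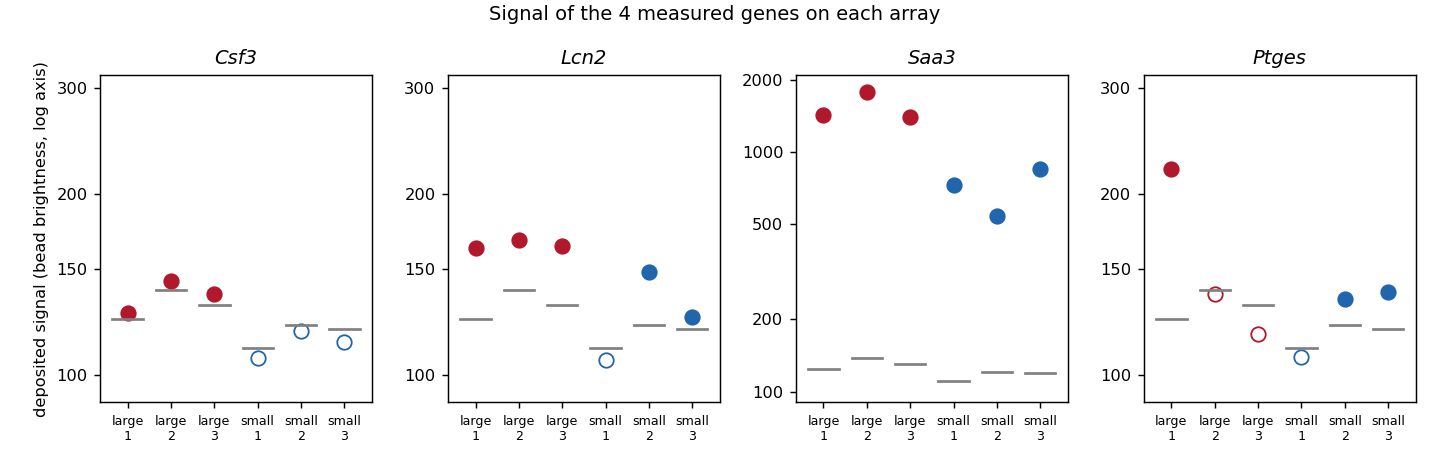
Deposited signal (bead brightness, log axis, scaled separately per gene) of Csf3, Lcn2, Saa3 and Ptges on each array, large tumors in red and small tumors in blue. Filled points were detected, open points were not, and each grey bar marks the lowest signal of any detected probe on that array. Saa3 lies far above the bars on every array, while the other 3 genes lie close to them.

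Csf3 was at the limit of detection. Its signals were 127, 143 and 136 in large tumors and 107, 118 and 114 in small tumors. It was detected in 3 of 3 large and in 0 of 3 small tumors, and so passed the filter only through the group in which it was higher. Normalized levels were 5.02, 5.18 and 5.14 in large tumors, against 4.86, 4.81 and 4.66 in small tumors. The means were 5.11 ± 0.08 and 4.78 ± 0.11 (SD, n = 3 each). The lowest level of a detected probe was 5.18 on the dim array of small replicate 1, above the large-tumor mean of Csf3. It was 4.91 and 4.88 on the arrays of small replicates 2 and 3. The large-tumor mean of Csf3 was 1.09-fold above the mean of these 3 lowest levels, on this normalized scale only. The normalized difference of Csf3 was 0.33, and it was 0.10 without background correction. Csf3 was the 1 gene of the 4 whose normalized levels did not overlap between the groups, lying higher in large tumors. Of all genes tested 29.6% had no overlap, and 16.1% had none and lay higher in large tumors.

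Ptges had no common direction. Its signals were 219, 136 and 117 in large tumors and 107, 134 and 138 in small tumors. Large replicate 1 stood highest, and the other large tumors fell within or below the range of the small tumors on the normalized scale. The probe was detected in large replicate 1 and in small replicates 2 and 3, and in none of the other 3 tumors. Normalized levels were 6.75, 4.95 and 4.51 in large tumors, against 4.90, 5.40 and 5.52 in small tumors. The difference was 0.13 ± 0.55 (SE, n = 3 per group), and the SD was 1.19 in large and 0.33 in small tumors. Without large replicate 1 it was -0.54, so its sign rested on that sample. It was also negative without small replicate 1 (-0.06), and it was 0.36 without large replicate 2, 0.58 without large replicate 3 and 0.25 without small replicate 3.

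**Figure D2:**
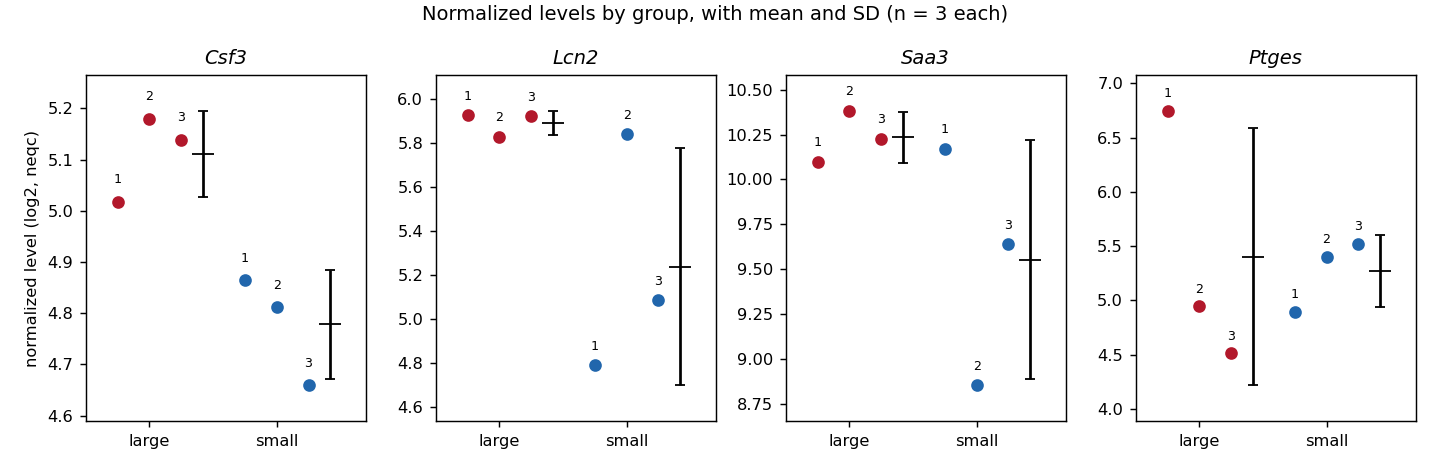
Normalized levels (log2) of the 4 genes in large tumors (red) and small tumors (blue), with the replicate number above each point and the mean and SD of each group (n = 3) as black bars; the axes differ between genes. The large tumors lie close together for Lcn2 and Saa3 but not for Ptges, where large replicate 1 stands alone at 6.75.

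How far the groups stood apart depended on the scaling for all 4 genes. When arrays were scaled to a common median, neither Saa3 nor Lcn2 overlapped between the groups. That scaling also moved the median of all genes to 0.34. Relative to that median the differences were 0.76 for Saa3, 0.41 for Lcn2, 0.05 for Csf3 and -0.13 for Ptges. The share of all genes with no overlap was not counted for that scaling or for the authors' processed table. Lack of overlap there is therefore a description only. In the authors' processed table, small replicate 1 had a Saa3 value of 1205, while the large tumors had 1106, 1380 and 1219, so the groups overlapped for Saa3 there too. In that table Csf3 stood at the common lowest value of 28.8 in large replicate 1 and in all 3 small tumors. Lcn2 had 65.5, 51.4 and 48.0 in large tumors there, against 28.8, 45.2 and 34.7 in small tumors, with no overlap.

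The promoters of Lcn2, Saa3 and Ptges are shown, as those of the measured genes with an annotated entry. Each sequence covers 250 bases before and 50 after the annotated start, from RefSeq on GRCm38.p6, minus strand, 5′ to 3′. Of the 5 genes, 4 matched an entry, and Csf3 did not. The entry of Ptgs2 is not shown, because the level of that gene was not analysed. Capitals mark matches, on either strand, to GGGNNNTCC (an NF-kB type motif) or TTGCNNAA (a C/EBP type motif).
Lcn2, chr2:32387690-32387989: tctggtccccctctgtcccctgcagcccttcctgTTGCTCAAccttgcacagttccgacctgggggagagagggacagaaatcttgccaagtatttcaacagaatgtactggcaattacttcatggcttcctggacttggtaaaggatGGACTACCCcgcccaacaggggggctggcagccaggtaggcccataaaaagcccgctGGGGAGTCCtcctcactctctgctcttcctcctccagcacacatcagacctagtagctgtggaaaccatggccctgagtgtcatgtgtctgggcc
Saa3, chr7:46715627-46715926: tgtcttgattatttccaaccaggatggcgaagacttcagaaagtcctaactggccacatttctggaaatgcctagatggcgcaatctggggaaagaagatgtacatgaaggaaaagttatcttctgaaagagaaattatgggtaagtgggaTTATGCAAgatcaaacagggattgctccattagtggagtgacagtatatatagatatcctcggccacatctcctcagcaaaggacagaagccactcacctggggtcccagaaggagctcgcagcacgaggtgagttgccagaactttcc
Ptges, chr2:30903248-30903547: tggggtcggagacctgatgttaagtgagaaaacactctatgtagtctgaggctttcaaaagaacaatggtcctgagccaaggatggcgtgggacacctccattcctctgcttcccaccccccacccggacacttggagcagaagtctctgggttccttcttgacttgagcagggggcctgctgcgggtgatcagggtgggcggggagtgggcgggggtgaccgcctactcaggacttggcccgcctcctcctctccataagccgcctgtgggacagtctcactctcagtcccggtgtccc

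The Lcn2 window held a C/EBP type match at positions -216 to -209 from the start and 2 NF-kB type matches, at -102 to -94 and at -45 to -37. The Saa3 window held a C/EBP type match at -99 to -92. Of 32851 promoter windows of the same length, 17.8% held GGGNNNTCC and 10.8% held TTGCNNAA. The stricter NF-kB motif GGGANTTCC, the AP-1 motif TGANTCA, the cyclic AMP half-site TGACG and the TATA box motif TATAAA, held by 1.68%, 7.81%, 20.8% and 13.6% of windows, had no match in these 3 sequences, and Ptges matched none of the 6 motifs. The window of Ptgs2, whose level was not analysed, held an NF-kB type match at -238 to -230 and a C/EBP type match at -69 to -62. It also held a cyclic AMP half-site at 14 to 18 after the start. A match describes the letters of the window only, and a link between matches and levels was not tested.

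Markers of other cells in the tumor samples are set beside the levels of Ptges. In bulk tissue, fewer cells of a type and less RNA per cell cannot be told apart. Of 19 listed keratinocyte markers 13 were tested, and their array medians were 10.39, 7.37 and 4.72 in large tumors against 4.45, 8.75 and 9.56 in small tumors. The highest 3 arrays for Ptges were large replicate 1, small replicate 3 and small replicate 2, the only ones on which it was detected. They were also the highest 3 for this list. A second list, of markers of stressed keratinocytes such as Krt17, Krt16 and Sprr1b, had 8 of 12 tested and another order, with medians of 11.63, 9.23 and 5.24 in large tumors against 4.52, 9.10 and 8.53 in small tumors. Its summed level ran from 531 to 33697 in large and from 473 to 10686 in small tumors. The summed normalized level of the first keratinocyte list ran from 782 to 62017 in large and from 610 to 48088 in small tumors. Krt14, a keratin of basal epidermis, was detected in all 3 large tumors and in 2 of 3 small tumors, and Lgals7 and Krt10, the next brightest keratinocyte markers, were detected on all arrays. The 3 arrays highest for Ptges were also the highest 3 for a list of adipocyte markers, 4 of 9 tested, in another order. The adipocyte medians were 6.32 to 7.39 on these arrays and 5.23 to 6.03 on the others. The match was therefore not particular to keratinocytes. The fibroblast, endothelial and T cell lists each had another highest 3. The part of skin cells or adipocytes in the Ptges values was not tested.

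The arrays were ordered differently for Lcn2, since large replicate 3 had the lowest keratinocyte median of the large tumors and an Lcn2 level of 5.92, next to the highest. For neutrophils, which store lipocalin 2, 7 of 18 listed markers were tested, and their summed level ran from 616 to 4582 in large and from 688 to 1179 in small tumors. Of the 7, 0 were called (2 at an unadjusted p under 0.05, limma, beside 22.5% of all genes), 5 had negative differences, and the median was -0.42. S100a8, a calcium-binding protein of neutrophils and of stressed skin, had a difference of 2.18 ± 0.97 (adjusted p = 0.246). The next brightest went the other way, with Hdc, which makes histamine, at -1.28 ± 0.28 (adjusted p = 0.0671) and Clec4d, a lectin receptor, at -0.22 ± 0.31 (adjusted p = 0.719). Macrophage markers, 14 of 15 tested and led by Lyz2, C1qb and C1qc, had summed levels of 6697 to 9352 in large and 8518 to 13874 in small tumors, and skeletal muscle markers, 12 of 12 tested and led by Acta1, Myl1 and Atp2a1, had 14444 to 20530 in large and 43686 to 61913 in small tumors. The part of these cells in the levels of Lcn2, Saa3 and Csf3 was not tested.

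**Figure D3:**
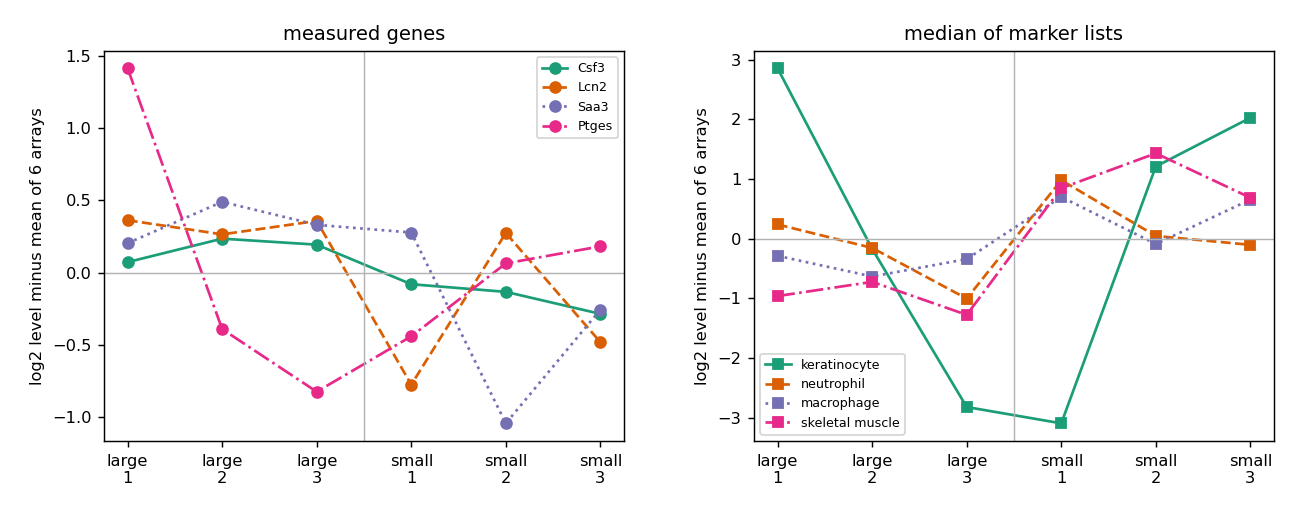
Left, normalized levels (log2) of Csf3, Lcn2, Saa3 and Ptges on each array, minus the mean of the 6 arrays; right, the array medians of 4 marker lists in the same way, with large tumors left of the vertical line in each panel. Ptges and the keratinocyte median both peak in large replicate 1, and Saa3 is lowest in small replicate 2.

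The genes most like each measured gene were taken by Pearson's r over the 6 arrays among 10522 other genes. With 6 arrays and this many genes, high values of r are reached by many genes, and they are given as a description. For Ptges they were Trex2 (r = 0.993), Itgbl1 (0.989), Gli2 (0.987), Krt79 (0.986) and Serpinb6c (0.982), of which Krt79 is a keratin of the hair follicle. For Lcn2 they were Sdc4 (0.995), a cell-surface proteoglycan, Spink8 (0.994), Dhrs7 (0.991), Fgf21 (0.99), a stress-induced hormone of the fibroblast growth factor family, and Hsd17b12 (0.988). For Saa3 they were Nprl2 (0.987), Dock4, Tnip2, Cdk5rap1 and Shmt2 (0.974 to 0.975), of which Tnip2 is a regulator of NF-kB signalling. For Csf3 they were Ing3 (0.996), AI597479 (0.995), Ufd1 (0.993), Mars2 (0.991) and Pds5a (0.99). No gene appeared among the nearest 5 of more than 1 measured gene.

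Genes around the 4 were grouped in 11 lists of 163 symbols, of which 107 had a named probe and 97 were tested besides the 4. Of these 97, 2 rose and 5 fell in large tumors, 7.22% called against 2.47% of all genes tested. The lists were written with earlier results of these data known, so this excess is no result. Of the 260 genes called among all, 83 rose and 177 fell. For the 97, differences were positive in 31 and negative in 66, with a median of -0.22. With arrays scaled to a common median, the medians of the interleukin-1, interleukin-17 and acute-phase lists turned positive. They went from -0.20, -0.22 and -0.13 to 0.12, 0.19 and 0.27, beside 0.34 for all genes. Both acute-phase medians here include Saa3. The 7 calls depended on the arrays, as did those of all genes. Without large replicate 1 or 3, 0 of the 97 and 0 of all genes were called. Calls were also 0 of the 97 without large replicate 2, beside 0 higher and 29 lower of all genes. They were 0 without small replicate 1, beside 8 higher and 77 lower, and 0 without small replicate 3, beside 0 higher and 1 lower. Without small replicate 2, 7 were called, 5 of them the same genes, beside 77 higher and 223 lower. Before adjustment, 1591 to 2600 of all genes had a p under 0.05 in these fits (limma).

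In the prostaglandin pathway, 9 of the 17 listed synthesis genes were tested besides Ptges, 0 were called (2 at an unadjusted p under 0.05, limma, beside 22.5% of all genes) and the median difference was -0.07. Ptges3, a prostaglandin E synthase better known as an Hsp90 co-chaperone, was at 7.87, 7.40 and 7.50 in large tumors, against 8.52, 8.14 and 8.45 in small tumors, with no overlap and a difference of -0.78 ± 0.17 (adjusted p = 0.065). Ptges2, the third such synthase, was at -0.09 ± 0.21 (adjusted p = 0.842), and neither of these synthases had its highest level in large replicate 1, as Ptges did. Tbxas1, thromboxane synthase, was at -1.33 ± 0.33 (adjusted p = 0.0862), and its other detected probe was at -0.51. Pla2g2e, a secreted phospholipase A2, was at 0.42 ± 0.18 (adjusted p = 0.227). No named probe was matched to Ptgs1, the constitutive cyclooxygenase.

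Among 5 tested genes of prostanoid breakdown and transport, 0 were called (2 at an unadjusted p under 0.05, limma, beside 22.5% of all genes) and the median was 0.03. Abcc4, a pump that exports prostaglandins, had 9.37, 9.33 and 9.48 in large tumors, against 8.65, 9.01 and 8.83 in small tumors, and a difference of 0.57 ± 0.13 (adjusted p = 0.0702). Slco2a1, which takes prostaglandins up, was at -0.49 ± 0.20 (adjusted p = 0.206), and Ptgr2, a prostaglandin reductase, at -0.28 ± 0.16 (adjusted p = 0.354). Of 9 receptors only Ptgir, for prostacyclin, and Tbxa2r, for thromboxane, were tested, at 0.28 ± 0.11 and 0.03 ± 0.23 (adjusted p = 0.194 and 0.948). The prostaglandin E2 receptors Ptger1 to Ptger4 were not matched to a probe.

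In a list of the neighbouring leukotriene branch and other lipoxygenases, all 5 tested genes had negative differences, with a median of -0.70. Of these, 0 were called and 2 had an unadjusted p under 0.05 (limma, beside 22.5% of all genes). Alox12, a lipoxygenase outside leukotriene synthesis, was the median gene at -0.70 ± 0.15 (adjusted p = 0.0611). Alox5, the lipoxygenase of that synthesis, was not matched to a probe. Alox5ap, the activating protein of the lipoxygenase that starts leukotriene synthesis, was at -0.82 ± 0.28 (adjusted p = 0.153), and Ltb4r1, a leukotriene B4 receptor, at -1.02 ± 0.44 (adjusted p = 0.234).

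Among colony-stimulating factors and their receptors, 5 of 13 were tested besides Csf3 and the median was -0.44. Of the 5, 1 was called, beside 2.47% of all genes, and 2 had an unadjusted p under 0.05 (limma, beside 22.5% of all genes). Csf1, the macrophage colony-stimulating factor, fell in large tumors, the opposite direction to Csf3. Its levels were 6.33, 6.37 and 6.44 in large tumors, against 7.11, 6.90 and 7.17 in small tumors, with no overlap. The difference was -0.68 ± 0.11 (adjusted p = 0.0399). Csf3r, the receptor for the Csf3 product and a neutrophil gene, was detected on all arrays and had 5.47, 5.34 and 5.33 in large tumors, against 5.90, 5.26 and 6.23 in small tumors. The groups overlapped, and the difference was -0.42 ± 0.24 (adjusted p = 0.348), with -0.20 without small replicate 3 and -0.69 without small replicate 2.

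Of 21 acute-phase genes 6 were tested besides Saa3, 0 were called (1 at an unadjusted p under 0.05, limma, beside 22.5% of all genes), and the median was -0.32. Saa1, its paralog of the liver acute-phase response, was detected in 0 of 3 large and 2 of 3 small tumors, with signals of 111, 133 and 131 in large tumors and 115, 128 and 117 in small tumors, and Saa2 was not matched to a probe. Pglyrp1, a peptidoglycan-binding protein, was at -0.51 ± 0.13 (adjusted p = 0.0957), Hp, haptoglobin, at -0.57 ± 0.38 (adjusted p = 0.416), and Lbp, which carries bacterial lipopolysaccharide, at 0.19 ± 0.24 (adjusted p = 0.679). Of 6 tested receptors reported for serum amyloid A, 3 had positive and 3 negative differences, and the median was 0.05. At an unadjusted p under 0.05 (limma) there were 2, beside 22.5% of all genes. The 1 called, Fpr2, a formyl peptide receptor of phagocytes, fell. It had 6.55, 6.28 and 6.79 in large tumors, against 8.14, 7.71 and 8.32 in small tumors, and a difference of -1.52 ± 0.20 (adjusted p = 0.0324).

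In the list of siderophore and iron handling, 10 of 15 genes were tested besides Lcn2, 0 were called (4 at an unadjusted p under 0.05, limma, beside 22.5% of all genes) and the median was -0.05. Slc22a17, a receptor for lipocalin 2, had 5.30, 5.19 and 5.02 in large tumors, against 4.75, 4.96 and 4.69 in small tumors, with no overlap and a difference of 0.37 ± 0.13 (adjusted p = 0.157). It was detected in 3 of 3 large and 1 of 3 small tumors. Trf, transferrin, which carries iron in blood, had 10.93, 11.22 and 11.56 in large tumors, against 9.85, 10.48 and 10.28 in small tumors, and a difference of 1.03 ± 0.22 (adjusted p = 0.0618). Tfrc, its receptor, was at 0.46 ± 0.11 (adjusted p = 0.0837), and Slc11a1, a metal transporter of macrophages, at -0.62 ± 0.17 (adjusted p = 0.099).

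**Figure D4:**
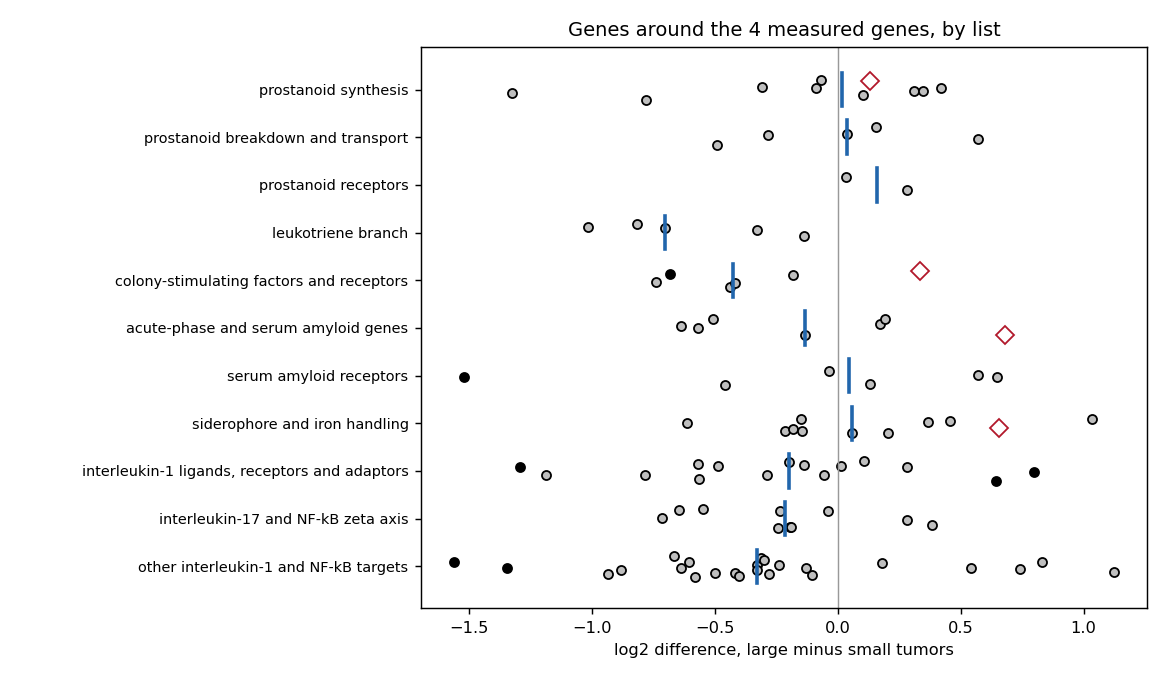
Log2 differences (large minus small tumors) of the tested genes in the 11 lists, each point a gene, black where called at an adjusted p under 0.05, with a blue bar at the median of the list and red diamonds for Csf3, Lcn2, Saa3 and Ptges. The diamonds lie right of 0 because these genes were chosen with a positive difference, so their place beside the list medians is no result. Of the 7 called genes, 5 lie left of 0, beside 177 of the 260 genes called among all.

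Upstream of the measured genes, 15 of 17 interleukin-1 ligands, receptors and adaptors were tested, and the median was -0.20. Of the 15, 2 rose and 1 fell, beside 2.47% of all genes called. At an unadjusted p under 0.05 (limma) there were 7, 2 higher and 5 lower, beside 22.5% of all genes. The higher pair was Sigirr, a receptor that dampens the signal, at 0.80 ± 0.13 (adjusted p = 0.0399), and Il1rap, the accessory receptor chain, at 0.64 ± 0.11 (adjusted p = 0.0415). Casp1, which cleaves the precursor of interleukin-1 beta, had a difference of -1.29 ± 0.21 (adjusted p = 0.0399). Il1b had 7.11, 6.49 and 6.49 in large tumors, against 8.00, 6.72 and 8.94 in small tumors, and its difference was -1.19 ± 0.53 (adjusted p = 0.242), or -0.66 without small replicate 3. Il1r1, the signalling receptor, had 5.47, 5.21 and 4.98 in large tumors, against 4.74, 5.40 and 4.68 in small tumors, and was detected in 3 of 3 large and 1 of 3 small tumors. Il1a was not matched to a probe.

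Of 12 genes of the interleukin-17 and NF-kB zeta axis, which helps to induce Lcn2, 10 were tested, 0 were called (3 at an unadjusted p under 0.05, limma, beside 22.5% of all genes) and the median was -0.22. Cebpb, a C/EBP transcription factor, was at -0.65 ± 0.22 (adjusted p = 0.157). Zfp36 and Zc3h12a, which speed the decay of inflammatory mRNAs, were at -0.72 ± 0.18 and -0.55 ± 0.19 (adjusted p = 0.0862 and 0.158). Of 35 other interleukin-1 and NF-kB targets 24 were tested, 19 of them with negative differences, and the median was -0.33. Of the 24, 2 were called, beside 2.47% of all genes. At an unadjusted p under 0.05 (limma) there were 12, 3 higher and 9 lower, beside 22.5% of all genes. The called genes there, Bcl2a1b and Bcl2a1d, are survival genes and near-identical copies whose probes may share signal. Bcl2a1b fell by 1.35 ± 0.23 (adjusted p = 0.0415) and Bcl2a1d fell by 1.56 ± 0.21 (adjusted p = 0.0324) on the log2 scale.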

How the data were processed

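The authors deposited Illumina bead array signals, an intensity per probe and array that was not normalized per the file headers, with a detection p-value for each. The submitters' processing notes name GenomeStudio, without its settings. The authors' processed values, a deposited intensity for 20346 of 45281 probes, are on a linear scale with background correction and normalization unstated. The median of that table lay between 128.5 and 132.7 on the large-tumor arrays, and at 119.99, 130.2 and 131.6 on those of small tumors.

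Background correction and quantile normalization used the neqc function (limma 3.58.1, R 4.3.3, offset 16, background inferred from detection p-values). Probes detected at 0.05 on at least 3 arrays were kept. Of the probes in the processed table, 17300 had 1 symbol in the platform annotation, 11 had several and 3035 were unnamed here, and 17278 matched a RefSeq table of GRCm38.p6 by Entrez identifier. The probe with the highest mean stood for a gene. Groups were compared with lmFit and eBayes with Benjamini-Hochberg adjustment over 10523 genes, after a test on simulated data. The number of arrays limits the precision.

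The members, lists and motifs were chosen with earlier results of these data, and for the motifs the promoter sequences, known. Named were the 4 measured genes, fixed relatives, called genes of each list or else its 3 smallest p-values, the 3 brightest markers of each marker list described, and the 5 nearest genes by correlation. The alternatives were 3 other normalizations, the processed table, 2 filters, each probe on its own, another prior, array weights, the replicate block and omission of each array.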

Additional observations from a re-analysis of the deposited data

How the results depend on the processing

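The count of called genes was 404 when signals were quantile-normalized without background correction, 162 with median scaling, 402 for probes detected on all 6 arrays, 656 with a trended and robust prior, 574 with array weights and 465 with every probe on its own, against 260, and 0 to 300 when an array was left out. Called genes of the lists numbered 7, against 12 without background correction or with detection on all arrays, 16 with the trended prior and 13 with array weights, and 0 to 7 with an array left out. The difference of Csf3 was 0.10 without background correction and 0.16 with offset 50, and that of Lcn2 was 0.21 without background correction. Saa3 had a positive difference in 15 of 15 alternatives (0.33 to 1.10), Lcn2 in 14 of 14 and Csf3 in 14 of 14. Ptges was positive in 11 of 14 (-0.54 to 0.58), negative with array weights at -0.16. These counts are no support for the signs, since the genes were chosen with a positive difference. Alternatives that changed only the filter, the prior or the replicate block could not move a difference. The medians of the prostanoid synthesis, prostanoid breakdown, serum amyloid receptor and iron lists, all near 0, changed sign under some alternatives, within -0.31 to 0.30. That of the acute-phase list with Saa3, -0.13, kept its sign in 13 of 16 alternatives (-0.37 to 0.27). Replicate numbers did not pair the samples (correlations of deviations -0.55, -0.07 and -0.45), and with the replicate block 109 genes and 3 genes of the lists were called. With detection required on all 6 arrays, Csf3, Lcn2 and Ptges gave no value. Csf3, Lcn2 and Ptges lie near the detection limit, so low values are bounds rather than levels.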
